A study of Rattus norvegicus with 6 samples.

Results

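Imprinted genes that govern growth before birth were followed in the inferior alveolar nerve (IAN), the sensory branch of the trigeminal nerve in the lower jaw, after its transection (IANX). The group was given by name as 8 genes, Dlk1, Peg3, Mest, Plagl1, Cdkn1c, Grb10, Ndn and Sgce, and a row was taken only where its gene symbol was exactly the same. All 8 were found among the 34106 genes of the count table, and all 8 were among the 15374 genes with enough counts to be tested. The rows were picked by symbol alone. In the IANX rats a 1 mm gap was cut in the left IAN and the mental nerve under isoflurane, after the cheek skin and the masseter muscle had been opened and the cortical bone over the nerve drilled away, and the stumps were not sutured. The Sham rats had the skin and muscle incision only, so that cutting the nerve and drilling the bone cannot be told apart in this comparison. The animals were male Sprague–Dawley rats, 6 to 7 weeks old when bought, with no transgene or drug in either group. Nerves were excised on day 14 from 3 Sham and 3 IANX rats, described as biological replicates, and poly-A selected RNA of each nerve was sequenced.

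In genomic imprinting, only the copy of a gene inherited from a given parent is used, and DNA methylation laid down at CG positions in the egg or sperm keeps the copies apart. Many imprinted genes act on the growth of the fetus and placenta, and a set of them is shut down together in many mouse organs as growth slows after birth. In the mouse, Dlk1, Peg3, Mest, Plagl1, Ndn and Sgce are expressed from the paternal copy, and Cdkn1c and, outside neurons, Grb10 from the maternal copy. The parental copy was not measured here, and all values are totals over both copies.

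The group spans different kinds of protein. Mest is an enzyme-like protein of the endoplasmic reticulum that marks mesoderm in the mouse embryo, and Dlk1 is a membrane protein with EGF repeats that acts on Notch receptors and holds back fat cell differentiation in mouse cells. Peg3 and Plagl1 are zinc finger proteins that act on transcription. Cdkn1c is an inhibitor of cyclin-dependent kinases, necdin (Ndn) is a MAGE family protein that restrains cell division, Grb10 is an adaptor that binds and damps the insulin and IGF-1 receptors, and Sgce is ε-sarcoglycan, which takes part in the dystroglycan complex that ties cells, Schwann cells included, to the basal lamina.

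The promoters of the 4 genes that passed the test below are printed so that the CG positions, at which methylation could lie, can be seen beside the transcript values. Each sequence is the 300 bases from 250 before to 50 after the RefSeq start on rat build GRCr8, read 5′ to 3′ on the gene's strand, with every CG in capitals. Methylation was not measured, and a RefSeq start need not be the start used in the nerve.
Mest (chr4:60321564-60321863, plus strand): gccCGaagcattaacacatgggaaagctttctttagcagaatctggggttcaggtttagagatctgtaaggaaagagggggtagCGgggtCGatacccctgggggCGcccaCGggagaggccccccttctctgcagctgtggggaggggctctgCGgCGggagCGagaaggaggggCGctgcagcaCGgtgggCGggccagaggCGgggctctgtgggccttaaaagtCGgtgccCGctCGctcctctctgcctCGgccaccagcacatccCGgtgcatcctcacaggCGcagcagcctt
Grb10 (chr14:90816338-90816637, minus strand): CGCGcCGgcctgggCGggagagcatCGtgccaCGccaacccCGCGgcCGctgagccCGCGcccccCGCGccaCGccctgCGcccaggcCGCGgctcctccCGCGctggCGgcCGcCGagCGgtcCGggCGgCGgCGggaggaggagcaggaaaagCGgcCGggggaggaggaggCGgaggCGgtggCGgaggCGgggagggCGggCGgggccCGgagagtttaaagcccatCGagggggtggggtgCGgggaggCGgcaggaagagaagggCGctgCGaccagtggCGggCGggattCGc
Peg3 (chr1:76130744-76131043, plus strand): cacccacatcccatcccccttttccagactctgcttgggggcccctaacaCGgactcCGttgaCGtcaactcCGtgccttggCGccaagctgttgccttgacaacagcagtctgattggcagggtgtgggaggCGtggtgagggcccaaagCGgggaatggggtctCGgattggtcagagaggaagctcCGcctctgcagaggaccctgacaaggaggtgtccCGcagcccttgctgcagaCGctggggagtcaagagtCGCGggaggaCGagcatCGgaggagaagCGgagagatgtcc
Sgce (chr4:33808739-33809038, minus strand): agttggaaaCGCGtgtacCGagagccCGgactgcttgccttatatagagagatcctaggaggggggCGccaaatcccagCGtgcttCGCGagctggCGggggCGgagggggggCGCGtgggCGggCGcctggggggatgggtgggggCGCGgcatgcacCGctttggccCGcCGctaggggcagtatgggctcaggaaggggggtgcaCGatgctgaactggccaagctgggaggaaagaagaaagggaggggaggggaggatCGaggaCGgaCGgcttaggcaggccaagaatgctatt
The motif searched was CG, which reads the same on both strands and cannot overlap itself. It occurred 44 times in the Grb10 promoter, 23 times in that of Sgce, 18 times in that of Mest and 16 times in that of Peg3. The median over all 33469 promoters of this length was 7. At least as many CG as in Grb10 were found in 1.89% of all promoters, and the shares for Sgce, Mest and Peg3 were 19.5%, 27.5% and 30.5%. Of the other members, the promoters of Dlk1, Plagl1 and Ndn held 45, 29 and 14 CG, at or above which lay 1.66%, 11.5% and 33.5% of all promoters. Thus 7 of the 8 members had a promoter sequence, with a median of 23 CG, and Cdkn1c had none.

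Total counts were 14630127 to 17105402 in the Sham samples and 13988750 to 16440720 in the IANX samples. The labelled tissue was checked with lists of cell markers, given here as summed CPM, read counts scaled to library size after TMM scaling for library composition. Schwann cell markers (Mbp, Sox10 and others) summed to 45263 to 49578 CPM in Sham and 1296 to 5772 CPM in IANX, 6 of 8 were lower, and none was at 0. Tooth markers (Amelx, Ambn, Dspp and others) summed to 128.6 to 863 CPM in Sham. In IANX 1 and IANX 3 they reached 56099 and 60865 CPM, but 1924 CPM in IANX 2, and 7 of the 8 that could be tested were higher in IANX; Klk4 had no count in Sham 3 and IANX 2. Macrophage markers summed to 416 to 479 CPM in Sham and 683 to 1736 CPM in IANX, highest in IANX 2, with 5 of 10 higher. Fibroblast markers overlapped between the groups in their sum, most of it Col1a1, at 13086 to 20294 CPM in Sham and 14214 to 29004 CPM in IANX, but 5 of 10 were higher and none lower. These 5 were Postn, Thy1, Fn1, Lum and Pdgfra, and the first was 68.6, 33.8 and 72.8 CPM in Sham and 511, 1030.0 and 951 CPM in IANX. Osteoblast markers summed to 1197 to 2102 CPM and 1599 to 3000.4 CPM with 5 of 7 higher, among them Runx2 at 11.3 to 21.7 CPM in Sham and 84.2, 88.0 and 107.3 CPM in IANX. Epithelial markers, with 5 of 6 higher, summed to 390.0 to 471 CPM in Sham and to 1269, 34.8 and 2653 CPM in IANX 1, 2 and 3. Perineurial markers had 2 of 5 lower and endothelial markers 1 of 6 higher. Muscle markers had 1 of 7 lower, but a median log2 fold change of 0.83. They summed to 90.9 to 419 CPM in Sham and to 1199, 101 and 160 CPM in IANX 1, 2 and 3. The part of these cell types in the members' values was not tested. IANX 2 therefore stands apart from the other IANX samples in tooth, epithelial and macrophage markers, and IANX 1 in muscle markers. The results below are also given without IANX 2 or from it alone where that matters.

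After transection, 3 members were higher, Mest by 4.45-fold, Grb10 by 2.35-fold and Peg3 by 1.59-fold, and 1 was lower, Sgce, which fell to 0.604 of its Sham level. A call is an adjusted p under 0.05 in edgeR's quasi-likelihood test, adjusted by Benjamini-Hochberg across the 15374 genes. The other 4 members, Dlk1, Plagl1, Cdkn1c and Ndn, did not pass. Of all tested genes, 17.8% were called higher and 16.6% lower, together 34.4%, against which the 4 of 8 members are to be read; the group as a whole was not tested. The median log2 fold change of the members was 0.61, and that of all tested genes 0.08. The IANX samples lay above all Sham samples for 4 members, Mest, Grb10, Peg3 and Plagl1, and below them for Sgce, where 27% and 24.5% of all tested genes showed such a gap, together 51.5%. In CPM summed over the members, Sham 1, 2 and 3 had 358, 316 and 360, and IANX 1, 2 and 3 had 531, 561 and 436.

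**Figure D1:**
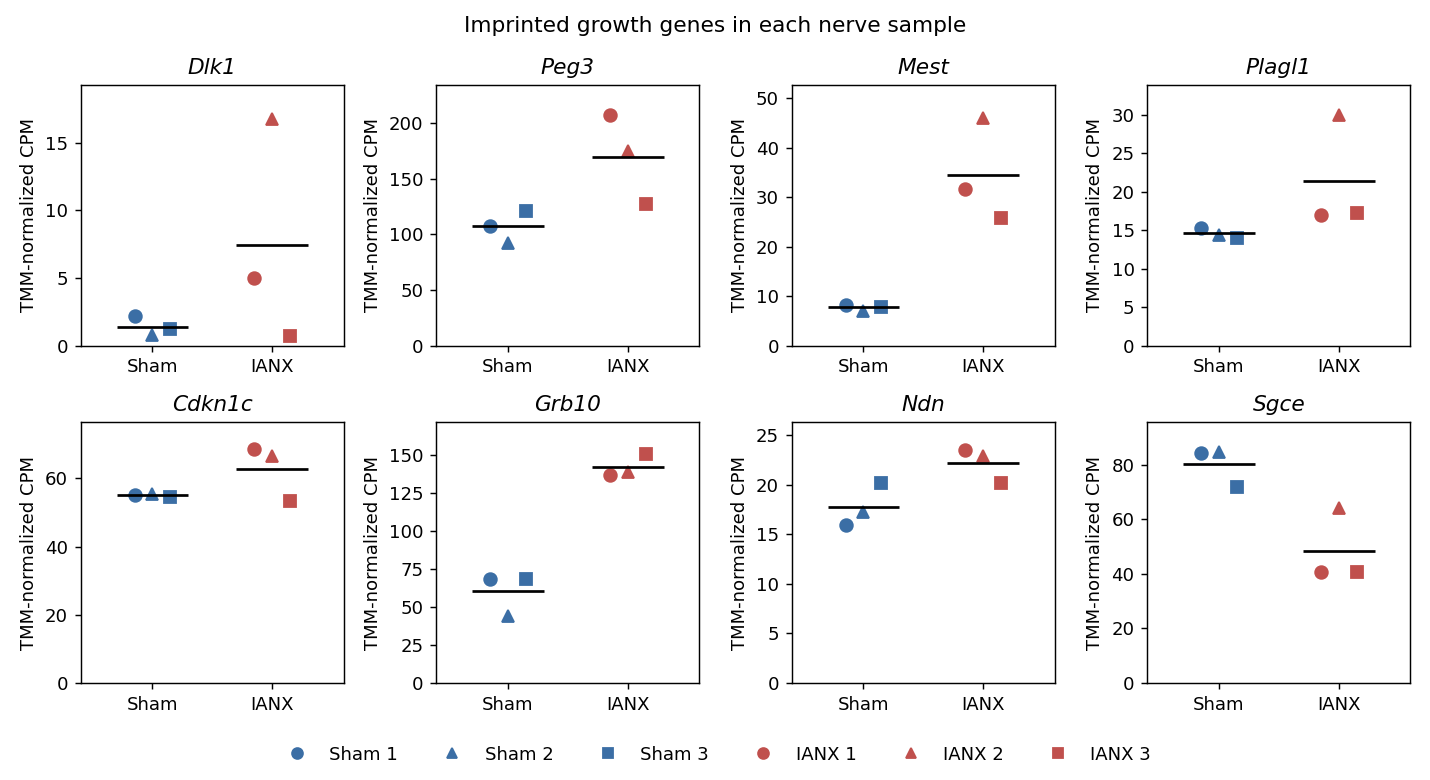
TMM-normalized CPM (y axis, linear, from 0) of each imprinted gene in the 3 Sham (blue) and 3 IANX (red) samples; symbols mark the sample number and bars the group mean. The groups are apart for Mest, Grb10, Peg3, Plagl1 and Sgce and overlap for Dlk1, Cdkn1c and Ndn, and IANX 2 is the highest IANX sample for Mest, Plagl1, Dlk1 and Sgce.

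Mest had the largest change of the group that passed. Its level was 8.28, 7.08 and 7.83 CPM in Sham 1, 2 and 3 and 31.6, 46.0 and 25.8 CPM in IANX 1, 2 and 3. The lowest IANX sample thus lay well above the highest Sham sample, and the Sham samples were close together. The means were 7.73 ± 0.609 CPM (SD, n = 3) and 34.5 ± 10.4 CPM (SD, n = 3), resting on 311 and 1838 reads per group. The log2 fold change was 2.15 (SE 0.25, 95% interval 1.57 to 2.74, edgeR adjusted p = 0.00141). It passed under all 16 alternative settings, with log2 fold changes from 1.85 to 2.59. Without IANX 2, the sample with the highest Mest, it was 1.85, and with IANX 2 as the only IANX sample it was 2.58. Mest lies on chromosome 4 at 58053041 to 58063138 of rn6, on the plus strand.

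Grb10 was the most even of the members after transection. Its level was 68.6, 44.2 and 68.5 CPM in the Sham samples and 137, 139 and 151 CPM in the IANX samples. The IANX samples differed by 5.14% (SD over mean), and Sham 2 was the low sample among the controls. The means were 60.4 ± 14.0 CPM and 142 ± 7.30 CPM (SD, n = 3 each). The log2 fold change was 1.23 (SE 0.20, 95% interval 0.77 to 1.70, edgeR adjusted p = 0.0045), and it passed under all 16 alternatives with values from 1.04 to 1.68. Without IANX 2 it was 1.21 and from IANX 2 alone 1.21. The tooth marker sum was 1924 CPM in IANX 2, 56099 and 60865 CPM in IANX 1 and IANX 3, and 128.6 to 863 CPM in Sham. A relation between Grb10 and the tooth markers was not tested. Grb10 lies on chromosome 14, minus strand, at 92021851 to 92117923.

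Grb10 belongs to a family of receptor adaptors with Grb7 and Grb14. Grb14, which also binds the insulin receptor, went the other way. It was 82.1, 107.8 and 71.0 CPM in Sham and 11.7, 24.8 and 17.8 CPM in IANX, a log2 fold change of -2.26 (SE 0.30, edgeR adjusted p = 0.0023). Grb7 was below 6 CPM in every sample, with a log2 fold change of 1.67 (SE 1.05, adjusted p = 0.25). The mean of Grb14 was 87.0 ± 18.8 CPM in Sham and 18.1 ± 6.57 CPM in IANX (SD, n = 3 each), while Grb10 was higher in IANX. Of the 11 tested genes of insulin and IGF receptor signalling, Grb10 left out, 1 was higher, the adaptor Shc1 (log2 fold change 0.72, adjusted p = 0.0125), and 1 lower, Grb14, with a median of 0.31. Without Sham 2 or Sham 3 Shc1 did not pass (adjusted p = 0.0615 and 0.0718), and without IANX 2 the number higher was 5. The receptors themselves did not pass with all samples: Insr had a log2 fold change of 0.89 (adjusted p = 0.0665) and Igf1r of 1.45 (adjusted p = 0.0672). Without IANX 2 both did and are among those 5 (Insr 1.11 and Igf1r 1.81, adjusted p = 0.00647 and 0.00317), and from IANX 2 alone Igf1r was at -0.03 (adjusted p = 0.973).

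Peg3 was higher by a small margin. It was 108, 92.2 and 121 CPM in the Sham samples and 207, 175 and 127 CPM in the IANX samples, and the lowest IANX sample, IANX 3, lay just above the highest Sham sample. The means were 107 ± 14.6 CPM and 170 ± 40.3 CPM (SD, n = 3 each). The log2 fold change was 0.67 (SE 0.21, 95% interval 0.17 to 1.17, edgeR adjusted p = 0.0471). The call was lost in 12 of the 16 alternatives: without Sham 1, 2 or 3 the adjusted p was 0.128, 0.171 and 0.103, and without IANX 1 or IANX 2 it was 0.138 and 0.0603. The direction was kept in all of them, with log2 fold changes from 0.50 to 1.11. Peg3 spans 70222964 to 70237443 on the plus strand of chromosome 1 (rn6); a gene annotated on the other strand inside it, Apeg3, had 0 counts in every sample.

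Sgce was the only member that fell. It was 84.2, 84.8 and 72.1 CPM in the Sham samples and 40.8, 64.1 and 40.7 CPM in the IANX samples, so that the groups did not overlap and IANX 2 was nearest to Sham. The means were 80.4 ± 7.18 CPM and 48.5 ± 13.5 CPM (SD, n = 3 each), a log2 fold change of -0.73 (SE 0.21, 95% interval -1.22 to -0.23, edgeR adjusted p = 0.0348). Without IANX 2 it was -1.02 (adjusted p = 0.00108), and from IANX 2 alone -0.32 (adjusted p = 0.26). The call was lost without Sham 1, 2 or 3 (adjusted p = 0.0993, 0.114 and 0.08) and without IANX 1 or IANX 3 (adjusted p = 0.103 and 0.114). With library sizes only, a scaling that moved the median of all tested genes from 0.08 to 0.53, Sgce was at -0.28 (adjusted p = 0.242), which lies 0.82 below that median, as against 0.81 with TMM.

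Sgce is found with other sarcoglycans and with dystroglycan. Of 10 tested genes of that complex, Sgce left out, 5 were lower and none higher, with a median log2 fold change of -0.98. The sarcoglycans Sgca (0.93, edgeR adjusted p = 0.123) and Sgcd (-0.68, adjusted p = 0.316) differed in sign and did not pass. Dag1, dystroglycan itself, fell from 1505, 1527 and 1425 CPM in Sham to 249, 400 and 346 CPM in IANX, a log2 fold change of -2.16 (SE 0.23, edgeR adjusted p = 0.00114). Sgcb, β-sarcoglycan, fell from 241, 232 and 228 CPM to 47.1, 91.4 and 58.3 CPM (log2 fold change -1.83, adjusted p = 0.00263), and the syntrophin Sntb1 (-2.27, adjusted p = 0.00199) and Dmd, dystrophin (-1.54, adjusted p = 0.00799), were lower as well. All 3 IANX samples showed the drop, and IANX 2 was the least low for Dag1 and Sgcb. The drop of Sgce and of the called genes of this complex came with the lower Schwann cell markers given above, which were also least low in IANX 2. In whole nerve, fewer cells of a type and less RNA per cell cannot be told apart, and the part of the Schwann cell share in these values was not tested.

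**Figure D2:**
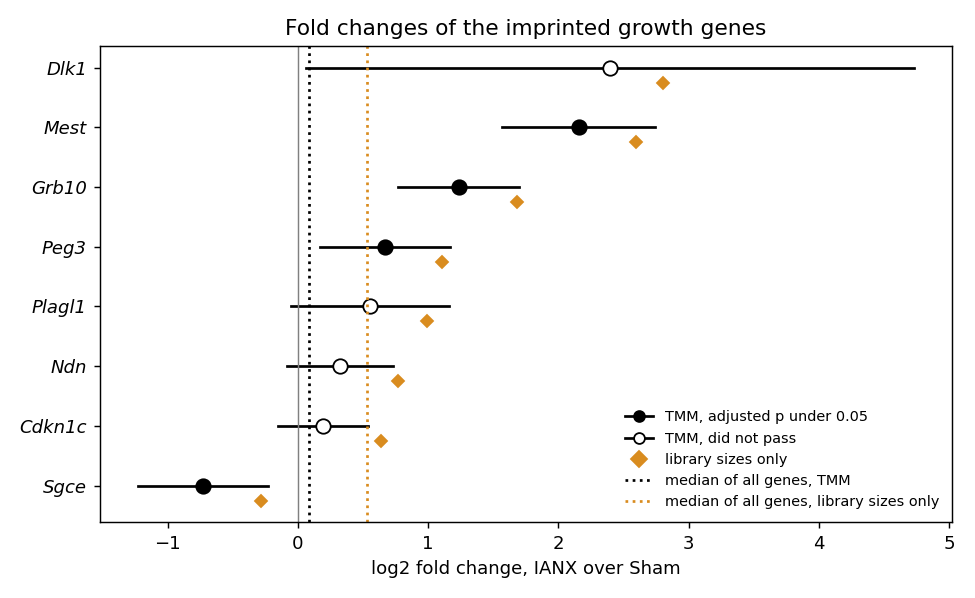
Log2 fold change, IANX over Sham (x axis), of each imprinted gene from the edgeR test; bars are 95% intervals, filled circles passed at an adjusted p under 0.05 and open circles did not. Diamonds show the same genes scaled by library size only, and dotted lines the median of all tested genes under each scaling (0.08 and 0.53). In each scaling every member but Sgce lies above the median of that scaling, and Sgce lies below it.

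Dlk1 varied more than any other member between the IANX samples. Read counts were 32, 9 and 17 in Sham 1, 2 and 3 and 88, 307 and 12 in IANX 1, 2 and 3. In CPM this was 2.21, 0.750 and 1.26 against 4.98, 16.7 and 0.711, so IANX 3 lay below every Sham sample and IANX 2 was 23.5 times IANX 3. The log2 fold change was 2.40 (SE 0.997, 95% interval 0.07 to 4.73, edgeR adjusted p = 0.0995). Without IANX 3 it was 2.94 and passed (adjusted p = 0.026), without IANX 2 it was 0.97, and it also passed with DESeq2 (2.39, adjusted p = 0.0248). At these counts and this spread, no single value stands for Dlk1 after transection.

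Plagl1 was apart in the groups without passing the test. It was 15.3, 14.4 and 14.0 CPM in Sham and 17.04, 30.0 and 17.2 CPM in IANX, with IANX 2 alone well above the rest. The log2 fold change was 0.55 (SE 0.26, 95% interval -0.05 to 1.16, edgeR adjusted p = 0.135). Without IANX 2 it was 0.19, and from IANX 2 alone it was 1.05 (adjusted p = 0.0136).

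Cdkn1c and Ndn had the smallest differences. Cdkn1c was 55.2, 55.4 and 54.6 CPM in Sham, the narrowest spread of any member, and 68.8, 66.5 and 53.4 CPM in IANX, where IANX 3 was below all Sham samples. Its log2 fold change was 0.19 (SE 0.15, 95% interval -0.15 to 0.54, edgeR adjusted p = 0.343), so a rise above 0.54 lies outside the interval. Ndn was 15.9, 17.2 and 20.2 CPM in Sham and 23.5, 22.9 and 20.2 CPM in IANX, with IANX 3 and Sham 3 at nearly the same level. Its log2 fold change was 0.32 (SE 0.17, 95% interval -0.09 to 0.73, adjusted p = 0.188). With library sizes only, both passed, together with Plagl1 (Cdkn1c 0.64, Ndn 0.77 and Plagl1 0.99, adjusted p = 0.0106, 0.0139 and 0.0146), while all tested genes then had a median of 0.53 and 80.1% of the calls were higher, against 51.7% with TMM.

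Levels can be compared between genes only per length, and for this the deposited FPKM (fragments scaled by gene length and library size) were used. In Sham the order of mean FPKM was Sgce (48.1 ± 4.51), Cdkn1c (27.2 ± 0.349), Peg3 (12.8 ± 1.67), Grb10 (11.7 ± 2.65), Ndn (11.2 ± 1.33), Mest (7.81 ± 0.577), Plagl1 (3.17 ± 0.146) and Dlk1 (0.881 ± 0.463; SD, n = 3 throughout). Of the neighbours in that order, only Peg3, Grb10 and Ndn overlapped in their samples. In IANX the mean FPKM was highest for Mest (34.0 ± 10.9), followed by Cdkn1c (30.2 ± 4.22), Sgce (28.3 ± 8.48), Grb10 (26.7 ± 1.24), Peg3 (19.8 ± 4.71), Ndn (13.7 ± 1.23), Dlk1 (4.62 ± 5.20) and Plagl1 (4.55 ± 1.68). Mest thus moved from the sixth place to the top, but its samples, at 30.8, 46.2 and 25.03 FPKM, overlapped those of Cdkn1c, Sgce and Grb10. Sgce went from a level apart from all others to the middle of that overlapping set.

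**Figure D3:**
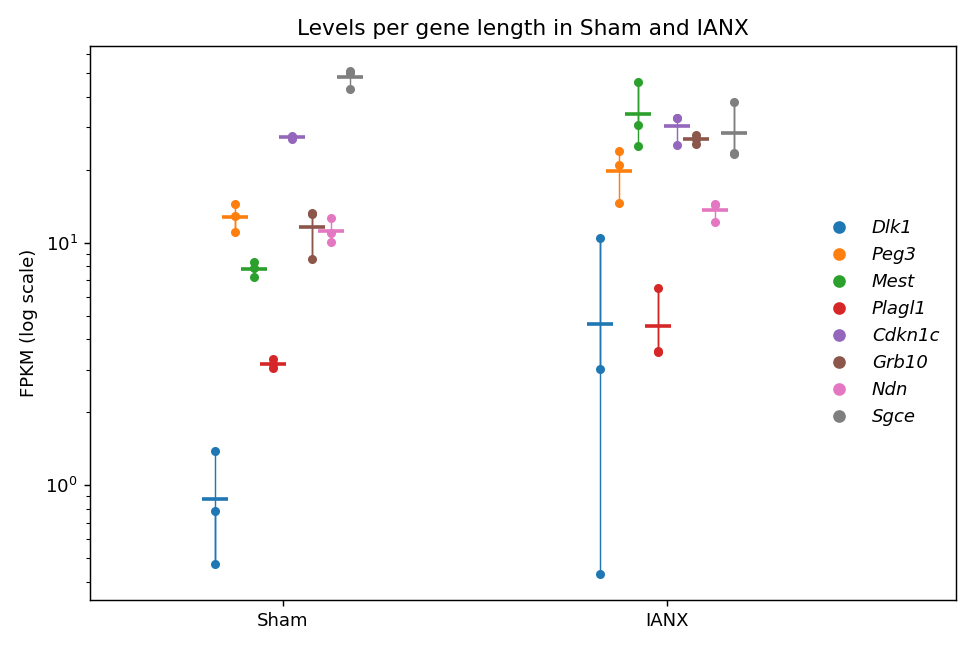
FPKM of each imprinted gene (y axis, log scale) in Sham and IANX; points are the 3 samples, the thin line their range and the wide bar their mean. In Sham the genes spread from Dlk1 (mean 0.881) to Sgce (48.1), and in IANX Mest, Cdkn1c, Sgce and Grb10 share the top range.

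The 3 IANX samples were then set beside each other, each as a log2 ratio to the Sham mean in CPM. For Grb10 the ratios were 1.18, 1.20 and 1.32 in IANX 1, 2 and 3, and for Mest 2.03, 2.57 and 1.74. For Peg3 they were 0.95, 0.71 and 0.25, and for Sgce -0.98, -0.33 and -0.98. Dlk1, at 1.83, 3.57 and -0.98, had ratios on both sides of 0, as did Cdkn1c by a little (0.32, 0.27 and -0.04). IANX 2, with the fewest tooth and the most macrophage and Schwann cell marker reads of the IANX samples, had the highest ratio for Dlk1, Mest, Plagl1 and Sgce, and IANX 3 the lowest for Dlk1, Peg3, Mest, Cdkn1c, Ndn and, level with IANX 1, Sgce. Mest was above all Sham samples in each IANX sample, with tooth marker sums of 56099, 1924 and 60865 CPM in IANX 1, 2 and 3. With 3 samples no relation between a member and a marker list was tested.

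**Figure D4:**
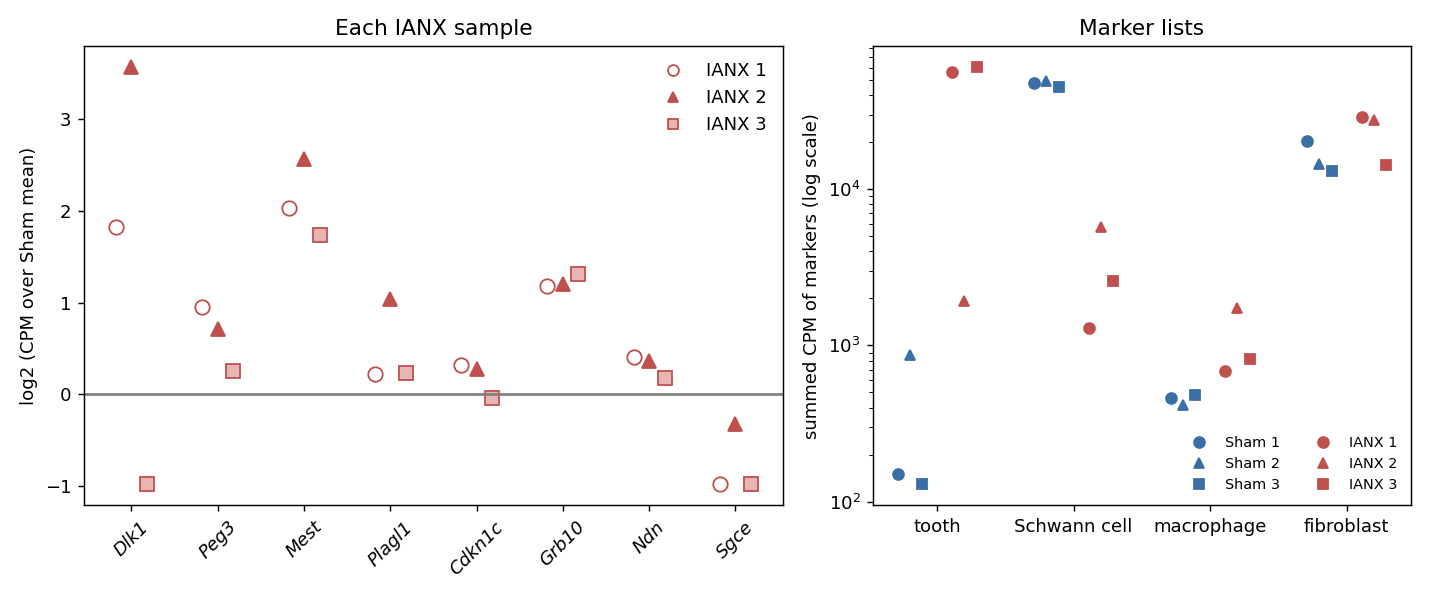
Left, log2 ratio of each IANX sample to the Sham mean in CPM for every imprinted gene. Right, summed CPM (log scale) of tooth, Schwann cell, macrophage and fibroblast marker lists in each sample; tooth markers reach 56099 and 60865 CPM in IANX 1 and IANX 3 but 1924 CPM in IANX 2, where Dlk1, Mest and Plagl1 have their highest ratio.

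Cdkn1c was read beside the other inhibitors of cyclin-dependent kinases. Of 6 tested, 2 were higher and 1 lower, with a median log2 fold change of 1.03. Its close relatives parted: Cdkn1a (p21) was 17.5, 19.5 and 10.9 CPM in Sham and 107.9, 43.8 and 69.5 CPM in IANX (log2 fold change 2.21, SE 0.37, edgeR adjusted p = 0.00509). Cdkn1b (p27) was 496, 496 and 483 CPM in Sham and 122, 176 and 136 CPM in IANX (-1.76, SE 0.19, adjusted p = 0.0011). Every IANX sample was on the same side for each of them, and Cdkn1c lay between the pair. Cdkn3, a phosphatase that acts on these kinases, was higher as well (1.28, adjusted p = 0.00773), and these 3 calls held without any single sample.

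The cyclins and kinases on which these inhibitors act were mostly higher, 8 of 9 tested with a median of 1.01 and none lower. Ccna2, the cyclin of S phase and G2, had the largest change, from 4.63, 1.58 and 2.51 CPM in Sham to 27.3, 17.4 and 27.7 CPM in IANX (log2 fold change 3.04, edgeR adjusted p = 0.00256). Ccnd1, a G1 cyclin, was 91.8, 88.2 and 83.0 CPM in Sham and 245, 473 and 215 CPM in IANX (1.83, adjusted p = 0.00531). Ccnd2 (1.56) and Ccne1 (1.25) passed too, but Ccnd2 not without Sham 3 (adjusted p = 0.0603) and Ccne1 only without IANX 2 among the samples left out. The number higher fell to 3 without Sham 3 and to 4 without Sham 1, Sham 2 or IANX 3. Over all tested genes it fell as well, from 2734 to 961 without Sham 3. Of 8 genes of dividing cells, 7 were higher (median 2.21), led by Top2a (3.31), Cdk1 (3.08), Ccnb1 (2.88) and Mki67 (2.31), whichever sample was left out.

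**Figure D5:**
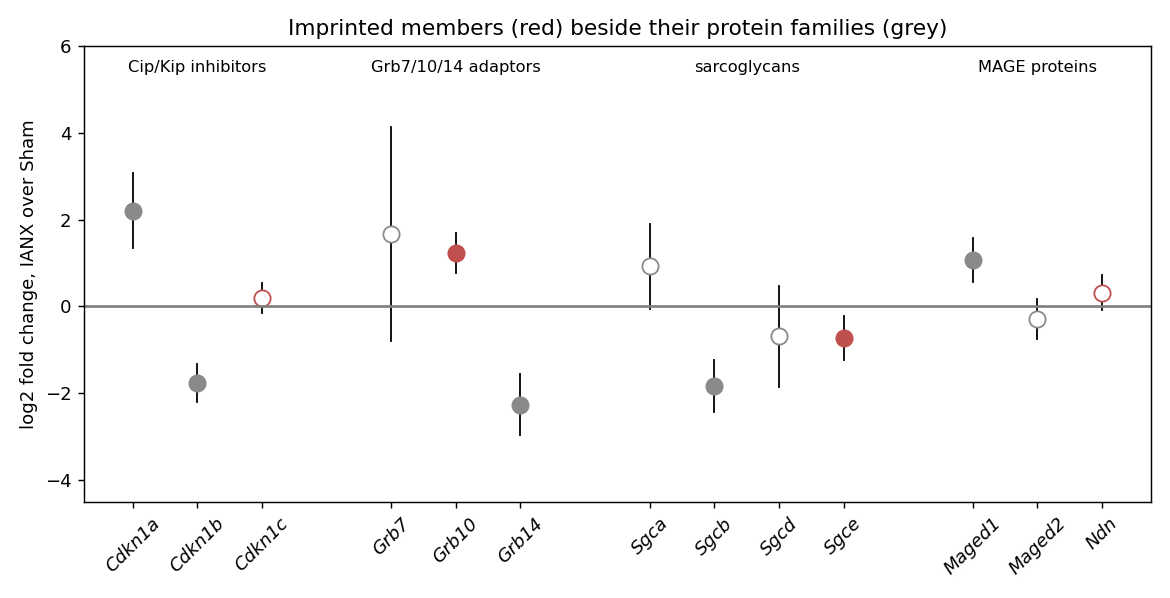
Log2 fold change, IANX over Sham, with 95% intervals for imprinted genes (red) and relatives of the same protein family (grey); filled symbols passed at an adjusted p under 0.05. Cdkn1c lies between Cdkn1a (2.21) and Cdkn1b (-1.76), and Grb10 (1.23) and Grb14 (-2.26) differ in sign. Sgce (-0.73) is on the side of Sgcb (-1.83) and Sgcd (-0.68), and Sgca (0.93) is on the other. Sgcd and Sgca did not pass.

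Among partners of necdin, 3 of 7 tested were higher and none lower, with a median of 0.20; without IANX 2, Maged2 (-0.49) and E2f1 (-0.56) were called lower (adjusted p = 0.0379 and 0.0462). Ngfr, the p75 neurotrophin receptor to which MAGE proteins bind, rose from 21.0, 26.0 and 20.7 CPM to 177, 574 and 190.5 CPM (log2 fold change 3.80, edgeR adjusted p = 0.00221). Hif1a, a factor of the hypoxia response (log2 fold change 1.12, adjusted p = 0.00756), and the MAGE protein Maged1 (1.07, adjusted p = 0.00975) were higher, the latter not without Sham 2 or Sham 3 (adjusted p = 0.0533 and 0.0547). Ndn itself was thus among the flattest of this set.

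Notch genes were listed for Dlk1. None of the receptors Notch1 to Notch4 passed with all samples, while 4 genes of the transcription factors that Notch induces did: Hes1, Hey1, Hey2 and Heyl. Hes1 was 16.1, 16.2 and 18.02 CPM in Sham and 37.5, 38.8 and 57.5 CPM in IANX (log2 fold change 1.41, edgeR adjusted p = 0.00324), and Heyl had 1.29 (adjusted p = 0.00603). Hey1 was 3.73, 2.33 and 3.03 CPM against 52.2, 11.1 and 8.53 CPM (2.98, adjusted p = 0.0187), highest in IANX 1 and not in IANX 2, where Dlk1 was highest. Hey2 (1.55) lost its call on leaving out any sample but IANX 2, and Hey1 on leaving out Sham 1, 2 or 3 (adjusted p = 0.0623, 0.0918 and 0.0757), so that the number higher was then 2. Without IANX 2 the number was 6, with Notch2 (0.94, adjusted p = 0.00399) and Notch3 (0.68, adjusted p = 0.0327) added, and from IANX 2 alone Notch2 (-0.87, adjusted p = 0.0441) and Notch4 (-1.37, adjusted p = 0.0378) were lower. The median of the 8 tested Notch genes was 0.94. Fat cell genes were listed because Dlk1 holds back their cell type. Of 5 tested, Lpl, lipoprotein lipase, was lower (-2.10, edgeR adjusted p = 0.000463) and none higher. The other 4 did not pass and differed in sign: Adipoq (-0.80), Fabp4 (-0.52), Pparg (0.36) and Cebpa (0.72). From IANX 2 alone, the sample with the highest Dlk1, Cebpa was at 1.53. Plin1, too low to be tested, had 33 reads in Sham 1 and 0 or 1 in every other sample.

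Further imprinted genes were called in both directions, where 17.8% of all tested genes were called higher and 16.6% lower. Of 6 tested genes linked with the same growth network, 1 was lower and none higher, with a median of 0.37; H19 and Meg3 were not matched by symbol. Gatm, an enzyme of creatine synthesis that is imprinted in the mouse placenta, was 724, 639 and 706 CPM in Sham and 39.5, 150.3 and 63.8 CPM in IANX (log2 fold change -3.03, edgeR adjusted p = 0.00426). The growth factor Igf2 was 147, 158 and 316 CPM in Sham and 403, 452 and 349.9 CPM in IANX, apart in the groups but short of the call (0.96, adjusted p = 0.0505; DESeq2 adjusted p = 0.0195). Without Sham 3, Igf2 passed (adjusted p = 0.0175). Igf2r, which clears it, had 0.60 (adjusted p = 0.0539). Without IANX 2 the list had 1 higher, Igf2r (0.71, adjusted p = 0.00967), and 2 lower, with a median of 0.15. Dcn, decorin, was then at -0.89 (adjusted p = 0.00378), against 0.13 with all samples and 1.14 from IANX 2 alone (adjusted p = 0.0018).

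Of 38 other imprinted genes listed, 34 were matched by symbol, and 10 of these had too few counts to be tested. Peg10, Dio3, Mcts2 and H13 were not matched. Beside 17.8% higher and 16.6% lower of all tested genes, 2 of the 24 other imprinted genes tested were higher and 6 lower. Their median was -0.10. Among those called, the largest changes were those of Slc22a3 (-2.98, edgeR adjusted p = 0.00764), a transporter of organic cations, Osbpl5 (-2.96, adjusted p = 0.000315), a lipid transfer protein, Zim1, a zinc finger gene (2.84, adjusted p = 0.00941) and Ppp1r9a, an actin-binding scaffold (-1.73, adjusted p = 0.0107). Osbpl5 was at 471, 462 and 451 CPM in Sham and 47.5, 70.5 and 59.9 CPM in IANX, with no overlap. Leaving out Sham 2 took the call from Zim1 (adjusted p = 0.0552) and leaving out Sham 3 that from Ppp1r9a (adjusted p = 0.0501). The number higher ran from 0 without Sham 2 to 5 without IANX 2, and the number lower from 3 without Sham 3 to 8 without IANX 2. Over all tested genes, 1029 were higher without Sham 2 and 3712 without IANX 2, and 1494 were lower without Sham 3 and 3504 without IANX 2. The median turned to 0.34 with library sizes only, below the 0.53 of all tested genes in that scaling.

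Imprinted genes lie in clusters, so the annotated genes next to each member were examined, 2 on either side. Of these 32, 15 could be tested, 3 were higher and 1 lower, beside 17.8% and 16.6% of all tested genes. Among the 15, Zim1, Ppp1r9a, Copg2, Mkrn3, Kcnq1, Slc22a18 and Ddc were already counted with the other imprinted genes. Zim1, 16207 bases from Peg3 and imprinted in the mouse, was 1.45, 0.583 and 0.295 CPM in Sham and 6.79, 5.77 and 4.44 CPM in IANX. Beside Mest, Cep41, a gene of the centrosome, was higher (log2 fold change 1.31, edgeR adjusted p = 0.0106), while Copg2, 1695 bases from Mest, was 76.4, 58.1 and 63.3 CPM in Sham and 65.3, 67.6 and 66.4 CPM in IANX (0.01, adjusted p = 0.966). Mest and its nearest neighbour thus differed, although they lie on opposite strands with their ends close together. Beside Grb10, Fignl1, a gene of DNA repair, was higher (2.81, adjusted p = 0.00473), from 3 to 9 reads in Sham to 49 to 69 in IANX, and Ddc was not (0.07, adjusted p = 0.901). The tested genes beside Cdkn1c did not pass (Kcnq1 -1.12, adjusted p = 0.149; Slc22a18 -0.04, adjusted p = 0.955). Next to Sgce, Ppp1r9a was lower and Casd1 had 0.61 (adjusted p = 0.156). Cep41 and Fignl1 kept their call without any single sample. The members themselves lie on chromosomes 1 (Peg3, Plagl1, Cdkn1c and Ndn), 4 (Mest and Sgce), 6 (Dlk1) and 14 (Grb10); Mest rose and Sgce fell on the same chromosome.

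Finally, the genes closest in pattern to each member were sought, by Pearson's r of log2 CPM over the 6 samples among the genes with a symbol whose mean reached 5 CPM. With 6 samples in 2 groups and many candidate genes, such values are a description. For Mest they were Tsc22d1 (r = 0.999) and Kcng1 (r = 0.998), for Grb10 Tmem64 (r = 0.999) and Atrx (r = 0.998), for Peg3 Ube2d1 (r = 0.995) and Kctd14 (r = 0.994), and for Sgce Ick (r = 0.999) and Utp11l (r = 0.998). Dlk1 was closest to Lrrc49 (r = 0.997) and Rftn2 (r = 0.993), Plagl1 to Myl12a (r = 0.995) and Lgals3 (r = 0.995), Cdkn1c to LOC691931 (r = 0.987) and L3hypdh (r = 0.986), and Ndn to RT1-S3 (r = 0.991) and Ikbke (r = 0.981). No member was among the nearest of another, but only 2 genes were kept for each, so this does not show whether members move together. Between members, r ran from -0.849 for Grb10 and Sgce to 0.929 for Mest and Grb10, with Peg3 and Ndn at 0.904.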

How the data were processed

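RNA of the IAN was sequenced in 3 IANX and 3 Sham rats on day 14, as poly-A selected libraries made with a NEBNext kit. According to the study's methods and the submitters' processing notes, the authors aligned reads to rn6 with HISAT2 2.0.5, predicted added transcripts (StringTie 1.3.3b) and assigned reads to genes (featureCounts 1.5.0-p3). The annotation release, strand setting and treatment of reads with several matches are not given in the sources used here. The deposited table holds raw counts per gene, and FPKM values that the authors derived from those counts, the gene length and a library size per sample. Its columns from the authors' own DESeq2 1.20.0 comparison (group means, fold changes and p-values) were not used. The transection is written as a transfection in the sample labels; the methods describe a cut nerve.

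The 8 members and all gene lists were chosen with earlier results of these data known. Counts were fitted with edgeR 4.0.16 in R 4.3.3 (filterByExpr, TMM, quasi-likelihood F test, two-sided, Benjamini-Hochberg over 15374 genes, threshold 0.05), with condition as the only term. Given CPM are TMM-normalized and intervals are 95%. The fit was tested on simulated data. Alternatives were DESeq2 1.42.0, RLE size factors, library sizes only, no filter, Ensembl genes only, limma 3.58.1 on log2(FPKM + 1) where 3 samples reached 1 FPKM, on log2(FPKM + 0.1) and with no filter, a replicate block, each sample left out and IANX 2 as the only IANX sample. Named were all members, up to 4 called genes per list with the largest change, the 2 nearest genes in pattern and the 2 annotated genes on each side. Promoter sequences are from RefSeq (build GRCr8), matched by symbol; Gnas had overlapping rows, of which the first was used. Some genes of the Schwann cell and dystroglycan complex lists are not reported here and were left out of the sums and counts. Precision is limited by 3 samples per group. The edgeR p-values set the difference between the groups against the spread within groups, which is estimated with the help of all tested genes.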

Additional observations from a re-analysis of the deposited data

How the results depend on the processing

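No member changed sign under any of the 16 alternatives, and Mest and Grb10 passed in all of them. The members called higher, 3 in the main test, were 6 with library sizes only and 5 with IANX 2 as the only IANX sample, and 2 to 4 when 1 sample was left out. The members called lower, 1 in the main test beside 2550 of 15374 genes, were 0 with library sizes only, beside 1468 of 15374. They were 0 under unfiltered limma on log2(FPKM + 1), beside 2381 of 22931, and 0 to 1 when 1 sample was left out. Over all genes the number lower then ran from 1494 of 16142 without Sham 3 to 3504 of 16048 without IANX 2. Over the lists of related genes, 27 were higher and 15 lower, with the cell marker lists of the tissue check left out. The list of cyclins and kinases held 8 of the 27 and the genes of dividing cells 7. Library sizes only gave 43 higher, and leaving out 1 sample gave 17 to 37 higher and 12 to 20 lower. Peg3 also lost its call with RLE size factors (adjusted p = 0.0567), no filter (0.0627), Ensembl genes only (0.0505) and limma on log2(FPKM + 1), log2(FPKM + 0.1) and without a filter (0.07, 0.0705 and 0.107), and Sgce with limma without a filter (0.0522). Correlations of deviations between samples with the same replicate number were 0.0858, -0.0144 and 0.0753. Those of the other pairs of an IANX and a Sham sample ran from -0.128 to 0.0465. These values cannot show whether replicate numbers pair the samples. The edgeR fit with the replicate block called 2175 genes higher and 2299 lower, against 2734 and 2550. It left 2 members higher (Peg3 adjusted p = 0.0887) and 1 lower. Counts over all genes moved by over 1.5 times in 1 direction or both with library sizes only (5919 higher, 1468 lower), under unfiltered limma on log2(FPKM + 1) (1609 higher) and without Sham 1 (1554 higher), Sham 2 (1029 higher, 1571 lower), Sham 3 (961 higher, 1494 lower) or IANX 3 (1713 higher). Where IANX 2 was the only IANX sample, it was assumed to vary as the Sham samples do. The cause of these changes was not tested. Dlk1, with 9 to 32 reads in Sham, is the member that depth limits most.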

Other observations

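The following genes were chosen after their values were seen. Peg12, an intronless gene 114510 bases from Ndn that is imprinted in the mouse, was at 22, 10 and 14 reads in Sham and 107, 38 and 68 reads in IANX (log2 fold change 1.83, edgeR adjusted p = 0.0273), and was not called when Sham 1, Sham 2, Sham 3, IANX 1 or IANX 3 was left out (adjusted p = 0.0576, 0.108, 0.105, 0.085 and 0.0655). The lincRNA AABR07065531.5, 84224 bases from Dlk1, was 24.0, 40.3 and 45.4 CPM in Sham and 14.0, 27.6 and 18.8 CPM in IANX (-0.86, adjusted p = 0.0741), and IANX 2 and Sham 1 overlapped. Rtl1, 127403 bases from Dlk1, had 1 read in Sham and 4 in IANX. An added transcript that ends 6910 bases before Peg3 on the same strand had 13, 1 and 9 reads in Sham and 52, 21 and 11 in IANX. Nap1l5, imprinted in the mouse, was 1.24, 0.833 and 0.812 CPM in Sham and 21.3, 0.926 and 2.67 CPM in IANX, so that IANX 1 alone was high (3.09, adjusted p = 0.0641). Cobl, next to Grb10 by the rule of 2 genes on each side, had 185, 119 and 142 reads in Sham and 939, 107 and 1076 in IANX. Like the tooth markers it was high in IANX 1 and IANX 3 and not in IANX 2. Grb10 itself had 2421, 2551 and 2540 reads in IANX, and a relation of either gene to the tooth markers was not tested.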
